A study of Mus musculus with 6 samples.

Results

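Acute phase proteins are secreted plasma proteins whose making rises during inflammation, and 9 of the genes that encode them were followed in gWAT, the gonadal white fat of the mouse and a visceral depot. The genes were haptoglobin (Hp), serum amyloid A1, A2 and A3 (Saa1, Saa2, Saa3), lipocalin 2 (Lcn2), orosomucoid 1 and 2 (Orm1, Orm2), lipopolysaccharide binding protein (Lbp) and ceruloplasmin (Cp). They were chosen by name as the rows whose NCBI gene identifiers carry these symbols, and all 9 were found among the 19790 identifiers of the count table. The RNA came from male wild-type C57BL/6 mice with no transgene or drug. A normal chow diet (NCD) was given to 3 of them and a high-fat diet (HFD) to the other 3, in both cases for 8 weeks. The labels place the start of feeding at 6 weeks of age, and the methods give a later age for the HFD. Whole tissue was sequenced, so fewer cells of a type and less RNA per cell cannot be told apart.

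The liver makes most acute phase protein in the blood, in answer to interleukin 6, interleukin 1 and related cytokines, which act through STAT3, NF-kB and the C/EBP factors. Fat tissue also makes several of them, and Hp and Saa3 are known as adipose acute phase genes in obese mice. The proteins differ in their work: haptoglobin captures free haemoglobin, ceruloplasmin carries copper and oxidizes iron, lipocalin 2 binds bacterial siderophores, LBP hands lipopolysaccharide to CD14 and TLR4, the serum amyloid A proteins travel on lipoproteins, and the orosomucoids bind small lipophilic molecules.

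The serum amyloid genes and the orosomucoid genes each lie together. In assembly GRCm38.p6 the serum amyloid genes are on chromosome 7, Saa3 at chr7:46711998-46719615, Saa1 at chr7:46740497-46743181 and Saa2 at chr7:46751833-46754313. Orm1 at chr4:63344556-63348163 and Orm2 at chr4:63362449-63365877 are on chromosome 4. Lcn2 at chr2:32384637-32387739 and Lbp at chr2:158306493-158332852 share a chromosome but lie far apart, Hp is at chr8:109575128-109579172, and Cp at chr3:19956933-20009750 overlaps Hps3 on the other strand. Upstream sequence was at hand for 6 of the 9 genes, as 7 windows of 250 bases before a RefSeq start. A C/EBP core, TTGCNNAA on either strand, was present in 6 of the 7 windows and was missing from 1 of the 2 Cp windows. The same letters were present in 9.56% of the 32851 promoter windows of all genes. An NF-kB form, GGGNNTTTC on either strand, and a STAT form, TTCNNNGAA, were in no window of these genes, and in 3.72% and 7.02% of all windows. The stretches around the C/EBP match follow in RefSeq sequence of GRCm38.p6, read 5′ to 3′ on the strand of the gene, with the match in capitals, for the serum amyloid, lipocalin and orosomucoid genes whose diet values are compared further on.
Saa1, chr7:46743115-46743202, minus strand: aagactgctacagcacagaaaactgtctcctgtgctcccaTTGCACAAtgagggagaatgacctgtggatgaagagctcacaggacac
Saa2, chr7:46751610-46751697, plus strand: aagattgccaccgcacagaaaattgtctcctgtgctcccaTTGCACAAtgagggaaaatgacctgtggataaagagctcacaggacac
Saa3, chr7:46715728-46715815, minus strand: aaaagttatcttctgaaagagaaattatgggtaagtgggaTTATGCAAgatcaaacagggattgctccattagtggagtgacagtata
Lcn2, chr2:32387908-32387989, minus strand: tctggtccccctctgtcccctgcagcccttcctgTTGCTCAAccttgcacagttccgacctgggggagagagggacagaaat
Orm2, chr4:63362289-63362376, plus strand: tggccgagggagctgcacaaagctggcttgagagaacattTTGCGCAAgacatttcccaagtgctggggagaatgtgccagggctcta
The matches start 182, 183, 99, 216 and 120 bases upstream of the RefSeq start used for the window, in the order shown. For Saa3, Saa1 and Cp the starts used lie inside the gene intervals given above. Their windows are therefore upstream of an internal start, and the Saa3 stretch lies wholly within its gene's interval. The Saa1 and Saa2 matches are the same 8 letters, and their whole 250-base windows were 94.8% identical when aligned, against 48.5% for Saa1 and Saa3. A match of letters is a description of the sequence and not a measured binding site.

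Depth ran from 49575113 to 66360046 counts per library. Seminal vesicle RNA stood out in the chow libraries: 11 secretory genes of that gland took 58.6% of the counts of NCD replicate 1, 11.2% of NCD replicate 2 and 2.30% of NCD replicate 3, against 6, 8 and 2 counts in the HFD libraries, and 9 of the 11 were called lower on HFD. Values between libraries are therefore given as CPM, the count relative to a library's total, after scaling by the trimmed mean of M values (TMM-scaled CPM), and the diet comparison of each of the 9 genes is given with and without NCD replicate 1. The 8 adipocyte markers were detected in all 6 libraries and summed to 6427 TMM-scaled CPM in NCD replicate 1, to 27948 and 36016 in NCD replicates 2 and 3, and to 13639 to 19769 on HFD. None of the 8 passed by edgeR or DESeq2 (0 at an unadjusted p under 0.05), and Plin1, Lipe and Pparg were called lower without NCD replicate 1. In that fit 20.9% of all genes were called in either direction.

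Hp was the most abundant of the 9 genes in every library. On the scale of FPKM, the count relative to exon length and library total, Hp was at 393, 2469 and 3275 in the chow libraries and at 2775, 8300 and 6598 in the HFD libraries, each in the order of replicates. It made up between 84.4% and 94.1% of the summed FPKM of the 9 genes. Among all genes of the table its count ranked 53, 21 and 14 in the chow libraries and 12, 1 and 1 in the HFD libraries. FPKM was set on library totals, so the seminal vesicle reads lower every FPKM value of NCD replicate 1. The division by the total leaves the order of genes within a library unchanged. The ranks of Hp among all genes do hold the seminal vesicle genes. All 11 of them had more counts than Hp in NCD replicate 1, and Svs2, Svs4 and Svs5 had more in each chow library. Whether RNA of that tissue moved the order of the 9 genes was not tested.

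Below Hp the mean levels ran Orm1, Lbp, Cp, Lcn2, Saa3, Orm2, Saa1, Saa2. The difference between Hp and Orm1 within a mouse was 4.14 ± 1.04 on the scale of log2(FPKM + 1) (SD, n = 6), with Hp higher in 6 of 6 mice. Orm1 exceeded Lbp by 1.68 ± 0.784 on the same scale, again in 6 of 6 mice. For each of these 2 pairs the exact two-sided sign-flip p was 0.03125, the smallest that 6 mice can give, and 0.125 after adjustment over the 8 neighbouring pairs. The other 6 neighbours in the order did not differ beyond their spread over the 6 mice, with exact sign-flip p from 0.0938 to 0.969. The 6 mice come from both diets, so this spread also holds the difference between diets. By diet, Lbp minus Cp was -0.274 ± 0.247 on NCD and 1.71 ± 0.672 on HFD (SD, 3 mice each). Hp minus Orm1 was 3.48 ± 0.205 on NCD and 4.80 ± 1.17 on HFD.

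The order differed by diet in its middle part, as a description of 3 mice each. On NCD it ran Hp, Orm1, Cp, Lbp, Lcn2, Orm2, Saa3, Saa1, Saa2. On HFD it ran Hp, Orm1, Lbp, Saa3, Lcn2, Cp, Orm2, Saa1, Saa2. Lbp lay below Cp in each chow mouse and above Cp in each HFD mouse. Saa3 moved from the seventh place to the fourth, with 0.833, 4.39 and 7.96 FPKM on NCD and 21.2, 99.8 and 175 FPKM on HFD. Its place depends on its exon length, taken here as 2606 bases over all annotated transcripts against 609 for Saa1 and 652 for Saa2, so a shorter transcript would place it higher.

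**Figure D1:**
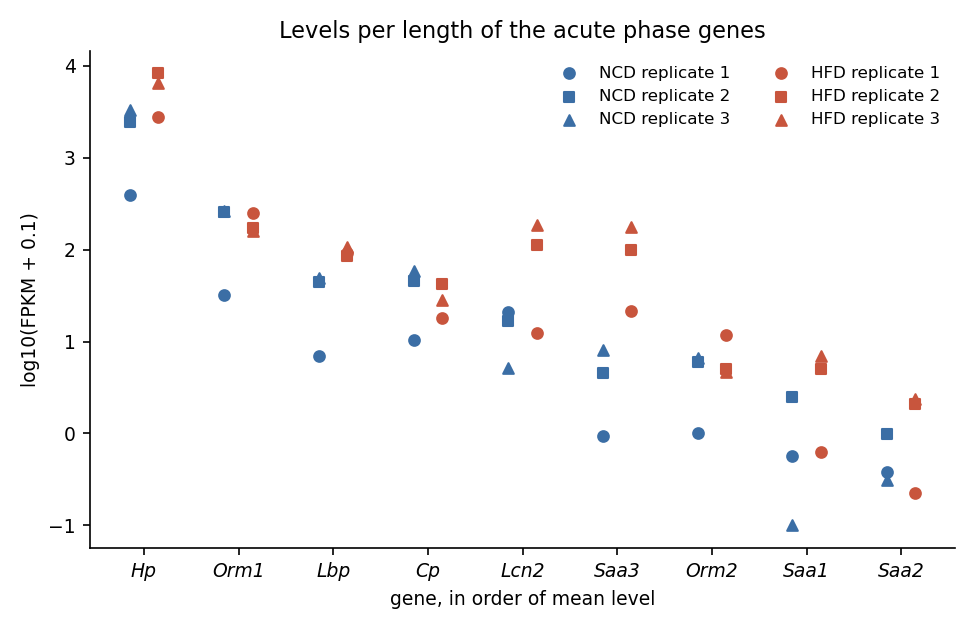
Level of each gene in each library, as log10(FPKM + 0.1) on the vertical axis, with genes in order of mean level along the horizontal axis, blue for NCD, red for HFD and 1 symbol per replicate. Hp sits above every other gene in all 6 libraries, and the 3 HFD points of Saa3 lie above its 3 chow points.

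Saa3 was the only one of the 9 genes to pass the test between diets when all 6 libraries were used. It was 17.6-fold higher on HFD. By edgeR's quasi-likelihood test, with adjustment over the 15241 genes tested, 1 of 9 genes was called, against 7.47% of all genes tested called in either direction and 5.58% called higher. All 9 genes passed the filter on low counts. Saa3 and Lbp were called without NCD replicate 1, 2 of 9, against 20.9% of all genes called in either direction and 10.7% called higher. The median log2 fold change of the 9 genes was 1.16, beside -0.08 over all genes tested. Every HFD library was above every chow library for 2 of 9 genes, Saa3 and Lbp, against 20.5% of all genes, so neither count stands far from what the table as a whole shows.

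**Figure D2:**
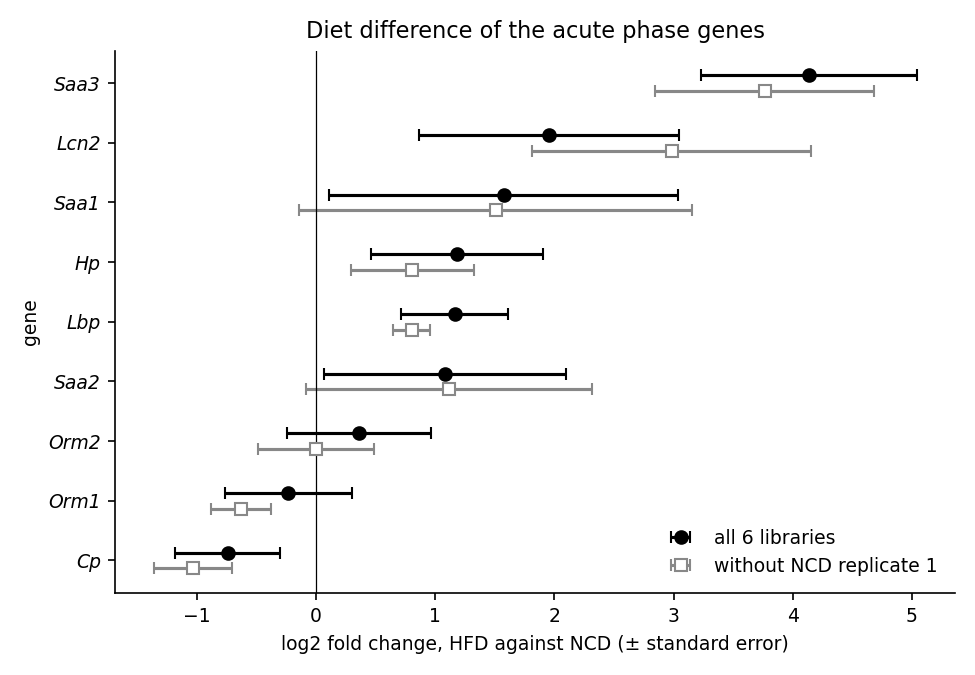
Log2 fold change of each gene, HFD against NCD, on the horizontal axis with its standard error as the bar, for all 6 libraries (filled circles) and without NCD replicate 1 (open squares). Saa3 is at 4.13 and 3.76, and the Lbp estimate falls from 1.16 to 0.80 while its bar shortens.

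The serum amyloid A genes covered the widest range of levels and of diet differences. Saa3, the form made by fat cells and macrophages, was at 4.39, 11.2 and 19.4 TMM-scaled CPM on NCD and at 47.9, 207 and 360 on HFD, from counts of 144, 670 and 1040 against 2761, 17260 and 22574. The diets did not overlap, and the lowest HFD library was above the highest chow library. The log2 fold change was 4.13 (SE 0.906), with an edgeR adjusted p of 0.0495, close to the threshold of 0.05. Without NCD replicate 1 it was 3.76 (SE 0.920), adjusted p = 0.0399. Leaving out any of the other 5 libraries (chow replicate 2 or 3, or any HFD replicate) ended the call, with adjusted p from 0.0581 to 0.153, while the log2 fold change stayed between 3.45 and 4.72. An exact two-sided permutation test of the 3 against 3 libraries gave p = 0.1, the smallest such a design allows.

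Saa1 and Saa2, the forms the liver secretes in the acute phase, were low, and close to the limit of detection in some libraries only. Saa1 had 19, 85 and 0 counts on NCD and 16, 199 and 209 on HFD. In the library with 0 counts, NCD replicate 3, a floor of 3 counts allows up to 0.0558 TMM-scaled CPM, for counting error only. Its diets overlapped, at a log2 fold change of 1.57 (SE 1.46) with an edgeR adjusted p of 0.500, and 1.51 (SE 1.65) with an adjusted p of 0.547 without NCD replicate 1. Leaving out NCD replicate 2 gave 2.84, and leaving out NCD replicate 3 or HFD replicate 3 gave 1.00. Saa2 had 12, 34 and 7 counts on NCD and 4, 85 and 73 on HFD, with a log2 fold change of 1.08 (SE 1.02) and an adjusted p of 0.505, and 1.12 (SE 1.20) with an adjusted p of 0.538 without NCD replicate 1. With each library left out in turn Saa2 ran from 0.63 to 1.62. HFD replicate 1 held the lowest Saa2 value of all 6 libraries. The 2 genes share 13.2% of the 50-base stretches of the Saa1 exons and 11.2% of those of Saa2, so some of their few reads could be placed on either. Saa3 shares 0.352% of its stretches with Saa1, which are 1.61% of those of Saa1, and none with Saa2. Saa3 had far more counts than Saa1, 17260 and 22574 in HFD replicates 2 and 3. The part of Saa3 reads in the Saa1 counts was not tested.

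**Figure D3:**
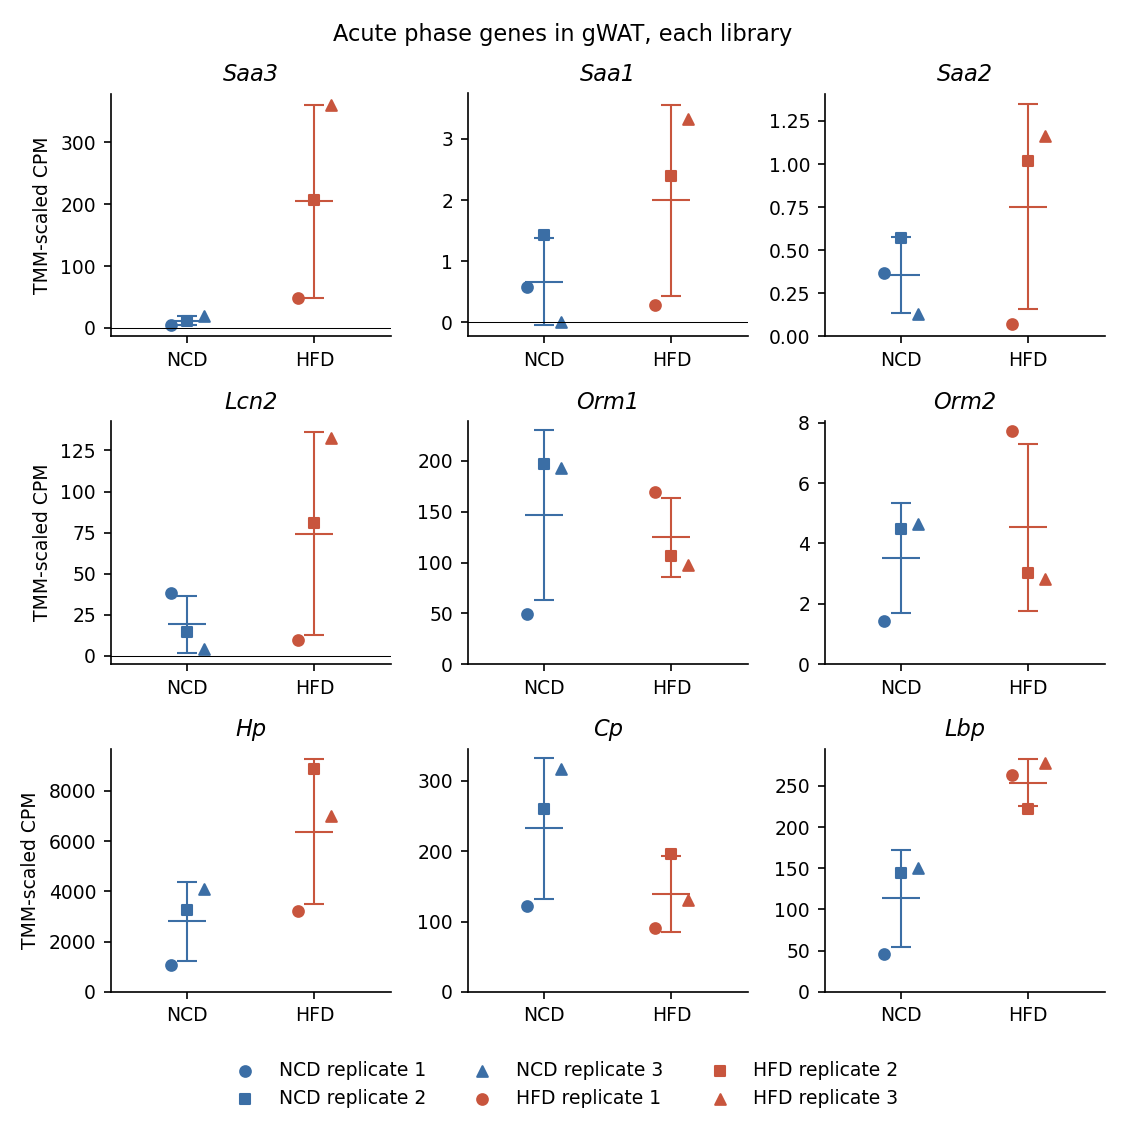
TMM-scaled CPM on the vertical axis of each panel for the 9 genes, with NCD and HFD along the horizontal axis, 1 symbol per library and bars for the mean and SD of 3 libraries. Saa3 and Lbp are the 2 panels in which the diets do not overlap, and the first HFD replicate is apart from the other 2 in most panels.

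Lcn2, which encodes an iron-scavenging protein of epithelia, neutrophils, macrophages and fat cells, overlapped between the diets. It was at 38.5, 14.7 and 4.34 TMM-scaled CPM on NCD and at 9.60, 80.9 and 133 on HFD. HFD replicates 2 and 3 were above all chow libraries, and HFD replicate 1 was below chow replicates 1 and 2. The log2 fold change was 1.96 (SE 1.09) with an edgeR adjusted p of 0.279, and 2.99 (SE 1.17) with an adjusted p of 0.125 without NCD replicate 1. Leaving out HFD replicate 3 gave 1.26. Within the chow diet Lcn2 ran in the order of the share of seminal vesicle counts, which was 58.6%, 11.2% and 2.30%, and the part of that tissue in the Lcn2 value was not tested.

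The orosomucoid genes did not pass the test. Orm1 was at 49.8, 197 and 193 TMM-scaled CPM on NCD and at 169, 107 and 97.9 on HFD, with a log2 fold change of -0.23 (SE 0.535) and an adjusted p of 0.793. Its direction turned with library totals alone, and with NCD replicate 2 or 3 left out. The 3 HFD libraries were all below NCD replicates 2 and 3, and without NCD replicate 1 the fit gave a log2 fold change of -0.63 (SE 0.2503) and an adjusted p of 0.128. Orm2, 20.4% of whose exon stretches are shared with Orm1, was much lower, at 1.43, 4.47 and 4.65 on NCD and 7.73, 3.03 and 2.82 on HFD. Its log2 fold change was 0.36 (SE 0.605) with an adjusted p of 0.716. It was -0.00 without NCD replicate 1 and -0.26 without HFD replicate 1, so its direction rests on either library.

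Hp, the haemoglobin scavenger, and Cp, the copper-carrying ferroxidase, are bound up with iron handling and did not pass the test. Hp was at 1068, 3251 and 4110 TMM-scaled CPM on NCD and at 3227, 8880 and 7013 on HFD. HFD replicates 2 and 3 were above every chow library, and HFD replicate 1 was just below NCD replicate 2. The log2 fold change was 1.18 (SE 0.720), adjusted p = 0.315, and 0.81 (SE 0.515), adjusted p = 0.306, without NCD replicate 1. Cp was at 122, 260 and 316 on NCD and at 90.6, 196 and 130 on HFD. With all 6 libraries the diets overlapped, at a log2 fold change of -0.74 (SE 0.438) and an adjusted p of 0.302. Every HFD library was below NCD replicates 2 and 3, and the fit without NCD replicate 1 gave -1.04 (SE 0.328), where the adjusted p of 0.0764 missed the threshold.

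Lbp, whose product carries lipopolysaccharide to the CD14 and TLR4 receptor complex, had the tightest HFD values of the 9 genes. It was at 46.0, 144 and 150 TMM-scaled CPM on NCD and at 263, 222 and 277 on HFD. The diets did not overlap, and NCD replicate 1 was far below the other chow libraries. With all 6 libraries the log2 fold change was 1.16 (SE 0.450) and missed the threshold with an adjusted p of 0.150. Without NCD replicate 1 the difference was smaller, 0.80 (SE 0.153), and Lbp was called higher with an edgeR adjusted p of 0.0214, a 1.74-fold difference. In that fit 20.9% of all genes were called in either direction and 10.7% higher. This was the only 1 of 14 alternatives in which Lbp passed, and DESeq2 with all 6 libraries gave an adjusted p of 0.0585.

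The HFD libraries were not alike for these genes. HFD replicate 1 held the lowest HFD value for 6 of 9 genes (Hp, Saa1, Saa2, Saa3, Lcn2 and Cp), and it did so for 36.8% of all genes tested. It held the highest HFD value for Orm1 and Orm2. Among the HFD libraries the sum of the neutrophil markers ran in the order of Saa3, Lcn2, Saa1 and Saa2. Other marker lists did not: the adipocyte, macrophage, hepatocyte and endothelial sums were highest of that diet in HFD replicate 1. The 11 neutrophil markers summed to between 5.15 and 10.002 TMM-scaled CPM on NCD and to 20.9, 155 and 420 in HFD replicates 1, 2 and 3. Most of the sum came from Csf3r, at 15.8, 66.2 and 145 in the HFD libraries, S100a9, at 0.416, 50.7 and 164, and S100a8, at 3.88, 24.9 and 76.6. Of the 6 neutrophil markers tested Csf3r rose by edgeR (adjusted p = 0.0495), and S100a8 just missed at 0.0508. Without NCD replicate 1 S100a8 was the one called (0.0492), and Csf3r just missed at 0.0533. The shares of all genes called higher were 5.58% and 10.7% in these 2 fits. With all 6 libraries 4 of the 6 were higher at an unadjusted p under 0.05, against 29.7% of all genes in either direction. DESeq2 called 4 higher (S100a8, S100a9, Csf3r and Cxcr2), against 25.6% of all genes in either direction. Retnlg and Ly6g were at 0 in all chow libraries, and the granule genes Ngp, Camp and Mpo stayed at or below 0.261 TMM-scaled CPM in all 6 libraries. The granule genes Ltf and Elane were highest in NCD replicates 1 and 3, at 0.731 and 0.651. Their log2 fold changes were -0.26 and -0.55, with edgeR adjusted p of 0.913 and 0.536. Without NCD replicate 1 these were 2.27 and -0.80, with adjusted p of 0.228 and 0.370. The part of neutrophils in the Saa3, Lcn2, Saa1 and Saa2 values was not tested.

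The 10 macrophage markers were mixed in how they ran among the HFD libraries. They summed to between 422 and 947 TMM-scaled CPM on NCD and to 3684, 2400 and 3062 on HFD, with the highest sum in HFD replicate 1, where Saa3 and Lcn2 were lowest on that diet. Itgam, Cd14, Fcgr1 and Mrc1, 4 of the 10, were lowest in HFD replicate 1 and highest in HFD replicate 3, as Saa3 and Lcn2 were, and the other 6 were highest in HFD replicate 1. With all 6 libraries 4 of 10 macrophage genes rose (Adgre1, Cd68, Itgam and Fcgr1), against 5.58% of all genes called higher, and 9 of 10 rose without NCD replicate 1, against 10.7%. The 12 hepatocyte markers were each highest in HFD replicate 1, where they summed to 52.7 TMM-scaled CPM, against 1.83 to 10.5 in the other 5 libraries. None of the 6 hepatocyte markers tested passed by edgeR (1 at an unadjusted p under 0.05, Hpx by DESeq2), and Ttr and Cyp2c29 were at 0 in all chow libraries. Hp in HFD replicate 1 was the lowest of its diet, while Orm2 there was the highest of all 6 libraries at 7.73 TMM-scaled CPM, and the part of liver RNA in that value was not tested. The 8 mesothelial markers summed to 656, 217 and 125 on NCD and 273, 686 and 226 on HFD. Most of the sum in NCD replicate 1 came from Krt8, Upk1b and Krt19, at 280, 151 and 134. These 3 fell with the seminal vesicle share among the chow libraries, and the part of that tissue was not tested. Msln, at 17.8, 18.8 and 14.8 on NCD, was the 1 marker of the 8 called higher by edgeR. It was at 67.2, 124 and 47.5 on HFD, and DESeq2 called Msln and Lrrn4, both higher. Over all genes 5.58% were called higher by edgeR, and 25.6% were called in either direction by DESeq2. The part of macrophages and mesothelial cells in the values of the 9 genes was not tested. Of the 8 stromal progenitor markers Col1a1 alone rose by edgeR, against 5.58% of all genes called higher. At an unadjusted p under 0.05 5 of the 8 were higher, and DESeq2 called 4 higher (Pdgfra, Pi16, Col1a1 and Ly6a). Over all genes the shares in either direction were 29.7% and 25.6%. Of the 6 endothelial markers none passed by edgeR or DESeq2 (0 at an unadjusted p under 0.05), with Pecam1 called higher without NCD replicate 1.

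**Figure D4:**
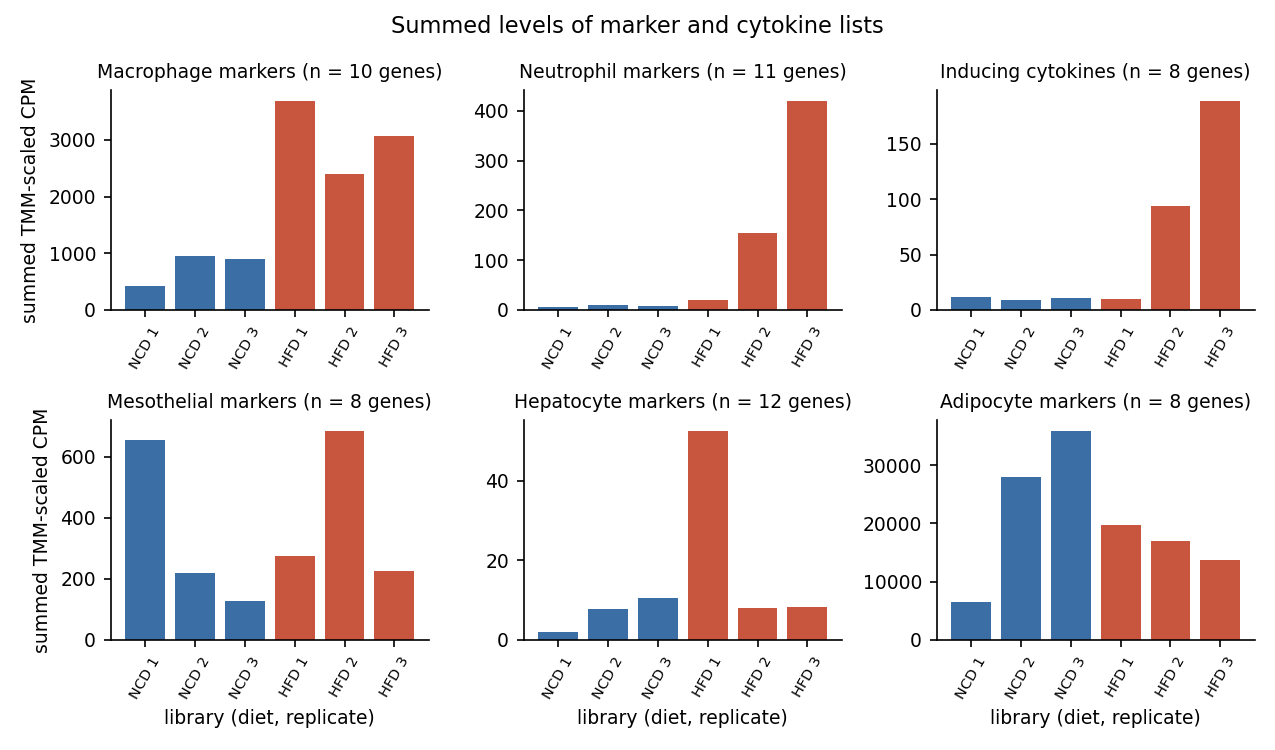
Summed TMM-scaled CPM (vertical axes, from 0) of 6 gene lists in each library along the horizontal axis, blue for NCD and red for HFD. The neutrophil and cytokine sums are highest in HFD replicates 2 and 3, the macrophage sum is high in all 3 HFD libraries, and the hepatocyte sum stands out in HFD replicate 1.

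Some of the genes went together across the 6 libraries. All genes of a library share its RNA, depth and scaling, so the values are descriptions. On log2(TMM-scaled CPM + 1), Pearson's r was 0.97 between Saa1 and Saa2, 0.90 between Saa2 and Lcn2 and 0.89 between Saa1 and Lcn2. It was 0.88 between Hp and Saa3, 0.86 between Hp and Lbp, and 0.88 between Orm1 and Orm2. Lcn2 and Orm1 ran against each other, with r = -0.65. Among 11391 other genes the closest patterns to Saa3 were those of Bst1, Clec4d and Pmaip1, with r from 0.995 to 0.997. The closest to Hp were Cbr2, Adamtsl4 and Parp11 (r from 0.989 to 0.994), and the closest to Lcn2 were Traf7, Plac8 and Irgm1 (0.981 to 0.986). Among 11392 genes, Saa1 was followed most closely by Eif2ak2, Sik3 and Cxcl10 (0.970 to 0.990) and Saa2 by Stat2, Il18bp and Gimap3 (0.975 to 0.979). The closest genes were Csgalnact1, Sipa1 and Zfp422 for Lbp, Adgrg2, Phlpp2 and Myorg for Cp, Celf2, Cox19 and Mgll for Orm1, and Myo10, Gpr155 and Reep5 for Orm2. The closest gene had an r of at least 0.979 for each of the 9 genes, so with 6 libraries a high value does not single a gene out.

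Of the genes that act around acute phase proteins, 77 were listed in 6 groups and 66 were tested, of which 8 rose on HFD and none fell by edgeR, against 7.47% of all genes called in either direction and 5.58% called higher. At an unadjusted p under 0.05 4 of them were lower, and DESeq2 called the same number lower (Ctf1, Heph, Orm3 and Rbp4). The cytokines that induce the response came first. Tnf, the tumour necrosis factor gene, was at 0.335, 1.15 and 0.651 TMM-scaled CPM on NCD and at 3.88, 3.48 and 4.37 on HFD. It was the only one of 8 cytokines that passed by edgeR, at a log2 fold change of 2.44 (SE 0.490) and an adjusted p of 0.0417, 0.0159 without NCD replicate 1. DESeq2 called 5 of the 8, with Il6, Il1b, Tnf and Osm higher and Ctf1 lower. Il1b, which encodes interleukin 1 beta, was at 0.518, 0.953 and 1.51 on NCD and at 1.02, 64.1 and 132 on HFD. HFD replicate 1 lay within the chow range and the other 2 HFD libraries far above it, and the edgeR adjusted p was 0.0738, and 0.0885 without NCD replicate 1. Osm, the oncostatin M gene, had the same split, at 1.3, 16.9 and 41.7 on HFD against 0.548 to 1.81 on NCD, adjusted p = 0.0857 and 0.105 without NCD replicate 1. Il6 was low throughout, at 0, 0.368 and 0.391 on NCD and 0.399, 2.79 and 5.04 on HFD, adjusted p = 0.148 and 0.111 without NCD replicate 1. The summed level of the 8 cytokines was 10.3, 94.0 and 189 TMM-scaled CPM in HFD replicates 1, 2 and 3.

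Among 9 receptor genes for these cytokines Tnfrsf1b, which encodes the second TNF receptor, rose from 24.1, 49.5 and 38.8 TMM-scaled CPM on NCD to 165, 148 and 186 on HFD, 4.44-fold, adjusted p = 0.0219. Il6ra was also called without NCD replicate 1 (log2 fold change 0.97, adjusted p = 0.0289). The share of all genes called higher was 5.58% with all 6 libraries. Without NCD replicate 1 the share was 10.7%, and 20.9% in either direction. None of the 13 transcription control genes passed with all 6 libraries by edgeR, although 8 had an unadjusted p under 0.05 and DESeq2 called 7 of the 13, all higher. Over all genes tested the shares were 29.7% at an unadjusted p under 0.05 and 25.6% called by DESeq2. Socs3, the STAT3-induced feedback inhibitor, was at 4.81, 9.70 and 8.99 on NCD and 9.50, 66.8 and 125 on HFD, adjusted p = 0.0838 and 0.102 without NCD replicate 1. Nfkb2, an NF-kB subunit gene, had a log2 fold change of 0.99 (SE 0.220) and just missed the threshold at an adjusted p of 0.0504. Without NCD replicate 1, Nfkb1 and Nfkb2 were called higher and Cebpa and Nr3c1, the glucocorticoid receptor gene, were called lower, at log2 fold changes of 0.57, 0.86, -1.14 and -0.85. Cebpb had 60.1 TMM-scaled CPM in HFD replicate 2 and 1.44 to 8.59 in the other libraries.

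Of 16 genes for receptors and partners of the 9 proteins, 3 rose by edgeR, Tlr4, Tlr2 and Hmox1, against 5.58% of all genes called higher. Tlr4, the lipopolysaccharide receptor gene, went from 31.1, 39.4 and 40.4 TMM-scaled CPM on NCD to 82.1, 88.5 and 111 on HFD, 2.54-fold, adjusted p = 0.0223. Tlr2 was 2.82-fold higher, adjusted p = 0.0327. Hmox1, the haem-degrading enzyme downstream of haemoglobin uptake, went from 14.9, 35.2 and 33.1 to 124, 122 and 176, 5.06-fold, adjusted p = 0.0254. Cd163, the haptoglobin-haemoglobin receptor, was at 16.4, 47.5 and 35.7 on NCD and 28.9, 27.2 and 39.0 on HFD, adjusted p = 0.921 and 0.254 without NCD replicate 1. The calls higher without NCD replicate 1 were Lrp1, Cd14, Tlr4, Ly96, Tlr2 and Hmox1, which include the whole LBP receptor set of Cd14, Tlr4 and Ly96. In that fit 10.7% of all genes were called higher and 20.9% in either direction. Heph, a ferroxidase related to ceruloplasmin, was called lower without NCD replicate 1, at a log2 fold change of -1.49 and an adjusted p of 0.0414, and missed the threshold with all 6 libraries, at -1.46 and 0.0573. It was at 130, 147 and 139 on NCD and at 75.6, 46.1 and 29.3 on HFD.

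Of the 23 other acute phase genes 15 were tested, and 3 rose by edgeR, among them Serping1 and Mt2, against 5.58% of all genes called higher. Mt2, a metallothionein gene, was at 33.1 to 40.7 TMM-scaled CPM on NCD and at 69.5, 236 and 356 on HFD, adjusted p = 0.0498, and 0.0511 without NCD replicate 1. Serping1, the C1 inhibitor gene, was 2.80-fold higher, adjusted p = 0.0496. Without NCD replicate 1 Serping1 was among those called higher, and Serpina3c and Orm3 were called lower, where 20.9% of all genes were called in either direction. Orm3, a further orosomucoid gene, was at 157, 18.2 and 11.6 on NCD and 2.34, 2.95 and 2.22 on HFD, falling with the seminal vesicle share among the chow libraries, and the part of that tissue was not tested. Its log2 fold change was -4.63 (adjusted p = 0.0591) with all libraries and -2.56 (adjusted p = 0.00667) without NCD replicate 1. Ptx3, a long pentraxin made outside the liver, was at 0.213 to 1.24 on NCD and 2.74, 22.3 and 100 on HFD, adjusted p = 0.0679 and 0.0736 without NCD replicate 1. The liver pentraxin genes Crp and Apcs were at most 0.416 TMM-scaled CPM in any library.

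None of the 5 tested genes that fall in a liver acute phase response passed with all 6 libraries by edgeR, where Apoa1, higher on HFD, and Rbp4, lower, had an unadjusted p under 0.05, and DESeq2 called Rbp4 lower. Their median log2 fold change was 1.29, which is the value of Alb. Apoa1, Ahsg and Alb, which are also liver genes, were at log2 fold changes of 4.89, 2.39 and 1.29 with adjusted p of 0.126, 0.227 and 0.481, and each was highest in HFD replicate 1. Rbp4, the retinol carrier gene that fat cells also express, was at 96.2, 381 and 509 TMM-scaled CPM on NCD and 128, 122 and 90.2 on HFD. It was called lower without NCD replicate 1, at a log2 fold change of -1.96 and an adjusted p of 0.00689. Trf, the transferrin gene, was at 957, 2783 and 4452 on NCD and 1697, 1831 and 1240 on HFD, adjusted p = 0.419, and 0.0559 without NCD replicate 1.

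**Figure D5:**
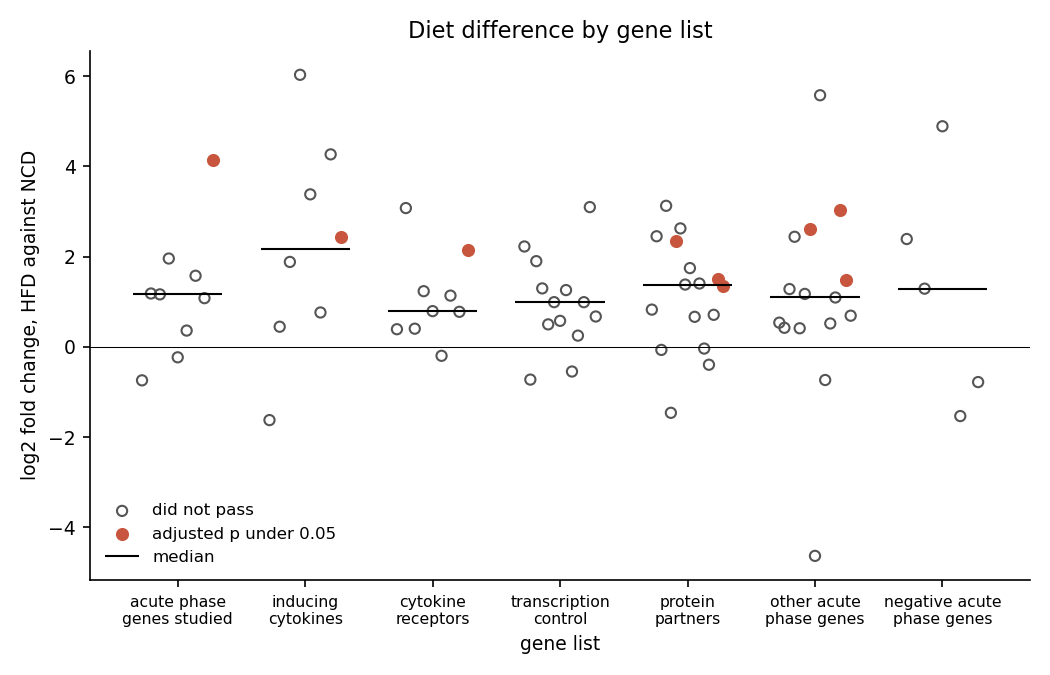
Log2 fold change, HFD against NCD, of every tested gene in the 9-gene set and the 6 lists around it, with filled red points for genes with an adjusted p under 0.05, open points for the rest and a bar for the median of each list. Saa3 is the filled point of the first list at 4.13, and all filled points lie above 0.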

How the data were processed

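Gene-level read counts of 6 gWAT libraries, 3 per diet, were deposited by the authors without normalization, by NCBI gene identifier. The submitters' processing notes name bcl2fastq 2.20.0, Trimmomatic, HISAT2 2.1.0, StringTie 1.3.4d, DESeq2, mm10 and GRCm38, with no role or order. The counting step (program, annotation, strand) was not given in the sources used here. Libraries were prepared with a TruSeq mRNA kit, which the labels call stranded. Every column was matched to a sample by its label (0 columns of no sample), and the third HFD column carries another number than its title. The labels call the libraries biological replicates. Counts of any pair of replicates differed well beyond sampling noise.

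Symbols were paired with 19742 of 19790 identifiers through NCBI's table for GRCm38.p6, and 48 stayed without one. The fit used edgeR 4.0.16 in R 4.3.3: filterByExpr with a minimum count of 10 and a minimum total of 15, TMM scaling, and the quasi-likelihood test of glmQLFit and glmQLFTest. P-values were adjusted by the Benjamini-Hochberg method across all 15241 tested genes, and adjusted values under 0.05 were called. The procedure was tested on simulated data. FPKM was computed from counts, library totals and GENCODE M21 exon lengths, found for 17794 genes, and the authors' lengths may have been others. Depth was 49575113 to 66360046 counts, so for abundant genes the spread between mice limits precision more than counting.

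The 9 genes, the gene lists and the marker lists were chosen with earlier results of these data known. Named genes are the 9, any gene of the lists (1 of which is not reported here), and the 3 genes closest in pattern to each of the 9 among genes with a mean of at least 5 TMM-scaled CPM. Alternatives were DESeq2 1.42.0, median-of-ratios and upper-quartile scaling, library totals alone, seminal vesicle genes taken out, no filter, a mean of at least 5 FPKM, a replicate block, log2(FPKM + 0.1), and each library left out in turn. Figures were drawn with matplotlib 3.10.9.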

Additional observations from a re-analysis of the deposited data

How the results depend on the processing

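Of the 9 genes, 1 was called with all 6 libraries, and 0 were called with no filter on low counts, with upper-quartile scaling or with the replicate block, while leaving out a library gave between 0 and 2. Saa3 stayed past the threshold in 6 of 14 alternatives, with adjusted p from 3.48e-06 (DESeq2) to 0.153 (without HFD replicate 3). The calls on the lists around these genes numbered 8, and became 34 with DESeq2, 4 with no filter, 5 with upper-quartile scaling, and between 0 and 19 when a library was left out. Over all genes 1139 were called (4524 at an unadjusted p under 0.05), 3904 with DESeq2, and between 2 and 3234 when a library was left out, the highest without NCD replicate 1. DESeq2 put 55.1% of its calls on the higher side against 74.6% for edgeR. The cause of these shifts was not tested. Replicate numbers did not pair the libraries across diets (correlations of deviations -0.05, -0.022 and -0.019), and the replicate block left 12 calls over all genes and 0 among the listed genes, with an adjusted p of 0.0605 for Saa3. Library totals alone moved the median log2 fold change of all genes from -0.08 to 0.45, and Orm1 turned to 0.072 under them. With libraries left out Orm1 ran from -0.63 to 0.037, turning to 0.037 without NCD replicate 2 and to 0.028 without NCD replicate 3. Orm2 ran from -0.26 to 0.62, turning to -0.26 without HFD replicate 1 and to -0.00 without NCD replicate 1. The difference between Hp and Orm1 on log2(FPKM + 1) was 3.85 to 4.32 when a mouse was left out, where 5 mice cannot give a sign-flip p under 0.0625. Saa1 and Saa2 could not be given a value at a mean of at least 5 FPKM, which they did not reach. Few counts limit Saa1 and Saa2.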
